A study of Mus musculus with 30 samples.

Results

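Single fibroblasts were chosen by a collagen rule from 2 libraries of mouse heart cells labelled as treated with MGT, a set of 3 factors (Mef2c, Gata4, Tbx5) used to turn fibroblasts into cardiomyocyte-like cells, 1 library from neonatal animals (P1 to P3) and 1 from 24-month animals. A barcode was kept with at least 500 genes and under 20% mitochondrial counts. It was called a fibroblast with at least 2 counts each of Col1a1, Col1a2 and Col3a1, at most 1 of the cardiomyocyte genes Tnnt2, Actc1, Myl7 and Ttn at 2 or more counts, and at most 1 of the macrophage and endothelial genes Csf1r, Adgre1, C1qa, Pecam1 and Cdh5 detected. This gave 628 neonatal and 2710 24-month fibroblasts, 3338 of 11612 barcodes in all. They were 16.4% (exact binomial 95% interval 15.3 to 17.6) of the 3828 kept neonatal barcodes and 46.9% (45.7 to 48.2) of the 5773 kept 24-month barcodes.

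Both single-cell libraries were wild-type (WT) primary heart cells, labelled as cardiac fibroblasts with MGT. Their Tbx5 level, given with the factors, was far below that of neonatal bulk MGT cells, which are libraries of another type. Whether these cells carried MGT was not tested. The day after MGT, the strain and the number of animals are not given in the sources used here. The 2 bulk comparisons used as independent libraries were MGT cells at day 3 from neonatal and 18-month hearts, and cardiac fibroblasts cultured for 3 days without MGT (CFs) from neonatal and 24-month hearts, all WT, with n = 2 libraries per group. The fits also held the other groups of each table, which were not compared here. These were LacZ controls (neonatal, 3-month and 18-month) and 3-month MGT cells, and 3-month and 12-month CFs. Nothing in the labels says that replicates came from separate animals, so the bulk p-values measure the spread between these libraries only.

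Cardiac fibroblasts make and remodel the collagen-rich matrix of the heart, and in culture many take on the contractile features of myofibroblasts. Direct reprogramming uses cardiac transcription factors to push such cells toward a cardiomyocyte state, and it is known to be less efficient in cells from adult than from newborn animals. Senescent fibroblasts are known for a secretory programme of proteases, chemokines and growth factor binding proteins. Interferon-stimulated genes form another programme, switched on by interferons through factors that bind a repeated GAAA element in promoters.

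The rule fixed the collagens and the excluded genes, so their levels describe the selection. At the edge of the rule, 54 neonatal and 146 24-month fibroblasts had a lowest collagen count of exactly 2, while 83 and 297 barcodes that met the other conditions had exactly 1. A further 499 neonatal and 55 24-month collagen-positive barcodes lay just outside with exactly 2 cardiac genes. The allowance of 1 cardiac gene was used by 590 of the 628 neonatal fibroblasts, in 583 of them for Tnnt2, and by 243 of the 2710 at 24 months. Only 38 neonatal fibroblasts held no cardiac gene at 2 or more counts. The allowance of 1 macrophage or endothelial gene was used by 136 neonatal cells and by 1172 cells at 24 months, mostly for Csf1r (96 and 874 cells).

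The fibroblasts held a median of 45383 counts and 6327 genes per cell at the neonatal age and 37981 counts and 5969 genes at 24 months, and their summed counts were 31.7 M and 107.6 M (M, 1e6 counts). The median mitochondrial share was 1.73% in neonatal and 0.488% in 24-month fibroblasts. Xist, the RNA of the inactive X chromosome, was detected without a Y-linked gene in 232 neonatal fibroblasts (36.9%) and in 0 at 24 months, where 2358 cells (87.0%) held Y-linked counts only. The neonatal cells came from both sexes and the 24-month cells carried no sign of female cells, so age and sex cannot be told apart in the single cells. In CPM (counts per 1e6 counts), Xist was also at 526 and 440 CPM in neonatal and 0 and 0.25 CPM in 18-month bulk MGT cells. Age and sex thus cannot be told apart in the bulk MGT comparison either, while bulk CFs held Xist at both ages (1277 and 1288, against 775 and 833 CPM). The libraries shared 11 barcodes, of which 1 was a fibroblast in both. The 38 neonatal fibroblasts without a cardiac gene were shallow, with a median of 13200 counts against 47280 in the other 590.

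Each age had 1 library, so no test was made between the single-cell libraries. Levels are CPM of the counts summed over the fibroblasts of a library, and intervals are exact 95% intervals that cover counting error only. A gene was counted as higher or lower at a difference of at least 2-fold, among 7830 genes with a mean of at least 10 CPM over both libraries. Macrophages of the same 2 libraries (123 and 393 cells with Csf1r, Adgre1 and C1qa detected) served as a background for free RNA.

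Interferon-stimulated genes differed in opposite directions in the libraries labelled MGT and in the bulk CFs. The promoters of the 2 most abundant such genes that hold the response element are therefore shown here. Both are the 250 bases before the start site in RefSeq (GRCm38.p6), 5′ to 3′ on the gene's strand. Capitals mark matches to GAAANNGAA, searched on both strands. Bst2, a membrane protein that tethers budding virus, has 2 overlapping matches at chr8:71537473-71537722 (minus strand).
Bst2: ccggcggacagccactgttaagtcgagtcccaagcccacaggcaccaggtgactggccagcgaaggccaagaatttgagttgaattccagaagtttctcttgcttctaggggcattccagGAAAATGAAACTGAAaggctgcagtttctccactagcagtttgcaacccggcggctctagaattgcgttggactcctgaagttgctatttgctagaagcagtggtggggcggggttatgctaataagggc
Ifit3, an interferon-induced antiviral protein, has 3 matches at chr19:34583279-34583528 (plus strand), all read on the opposite strand.
Ifit3: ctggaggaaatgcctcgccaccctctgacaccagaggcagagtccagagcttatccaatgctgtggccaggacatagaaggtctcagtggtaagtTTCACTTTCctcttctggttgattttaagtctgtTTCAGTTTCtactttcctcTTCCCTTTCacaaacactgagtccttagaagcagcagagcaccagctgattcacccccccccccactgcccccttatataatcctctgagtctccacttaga
The motif was present in 12 of the 25 interferon-stimulated genes that matched a promoter by symbol (48.0%) and in 4 of 14 antigen presentation genes (28.6%), against 8.18% of all 27025 genes and 7.13% of all 32851 promoters of the same length. A match describes the letters of a window and is no evidence of binding.

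The levels of the 3 collagens that defined the selection are a description, also in the macrophages, whose choice used them. Col1a1 (ENSMUSG00000001506, chromosome 11, 94936224 to 94953042, GRCm38) had 2120 CPM (2104 to 2136) in neonatal and 1775 CPM (1767 to 1783) in 24-month fibroblasts, and 44.2 and 19.1 CPM in the macrophages. Col1a2 had 2361 and 3150 CPM. Col3a1, the collagen of fine reticular fibres, had 1270 and 2993 CPM, 2.36-fold more at 24 months. Dcn, a fibroblast proteoglycan that the rule did not use, had 489 and 2076 CPM against 4.33 and 32.7 CPM in the macrophages. Against the label, most neonatal members also carried Tnnt2, as counted above.

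Across all 7830 genes, 370 (4.73%) were at least 2-fold higher and 298 (3.81%) at least 2-fold lower in 24-month fibroblasts. At least 4-fold, 124 genes (1.58%) were higher and 85 (1.09%) lower. The median log2 difference was -0.01. Most genes thus had like levels in the 2 libraries, and the differences lay in a small fraction of them, as the scatter plot of all genes shows.

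**Figure D1:**
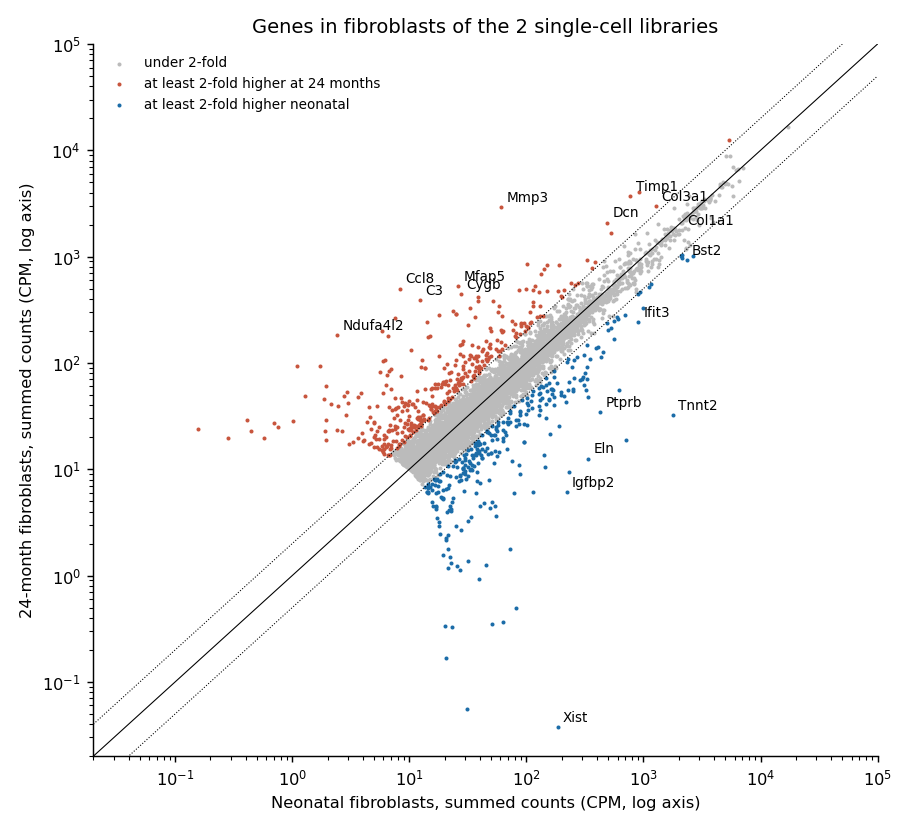
Summed CPM of each of the 7830 genes in neonatal (x axis) and 24-month fibroblasts (y axis), both on log axes. The solid line marks equal levels and the dotted lines a 2-fold difference; 370 genes lie above the upper and 298 below the lower dotted line, with Mmp3, C3 and Ccl8 far above and Xist, Tnnt2 and Igfbp2 far below.

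The bulk libraries, which the choice of cells did not use, gave a replicated test of the same genes, though in bulk MGT cells age and sex again cannot be told apart. In bulk MGT cells 14.4% of all genes tested were called higher and 16.2% lower at 18 months. In bulk CFs 27.9% were called higher and 26.6% lower at 24 months (edgeR quasi-likelihood test, adjusted p under 0.05). Of the genes higher in 24-month single fibroblasts, 241 of 368 tested were called higher in bulk MGT cells (65.5%) and 336 of 369 in bulk CFs (91.1%). Called lower were 42 and 15 of them. Of the genes lower in single fibroblasts, 211 of 296 (71.3%) were called lower in bulk MGT cells and 217 of 292 (74.3%) in bulk CFs. Called higher were 23 and 56 of them. For 47 genes lower in single fibroblasts, bulk MGT cells called them lower and bulk CFs higher. Bulk cultures hold other cells as well, and there fewer cells of a type and less RNA per cell cannot be told apart.

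The 12 genes with the largest excess at 24 months had several roles. Mmp3, a secreted protease (stromelysin) of matrix and of the senescent secretory programme, had 61.1 CPM (58.4 to 63.9) in neonatal and 2911 CPM (2901 to 2921) in 24-month fibroblasts, 47.6-fold more. Its macrophage levels were 0.456 and 65.3 CPM. Bulk MGT cells had 12.4 and 9.93 CPM at the neonatal age and 727 and 660 CPM at 18 months (log2 5.96 ± 0.13 SE, edgeR adjusted p = 1.341e-19). Bulk CFs had 3.66 and 3.81 CPM against 4881 and 5035 CPM (log2 10.38, edgeR adjusted p = 1.018e-41). Neonatal and old libraries did not overlap in either bulk comparison.

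Among the other 11 of the 12 largest excesses, Ccl8, a monocyte-attracting chemokine, had 8.24 and 499.9 CPM, a 60.7-fold difference. Ndufa4l2, a mitochondrial protein induced by low oxygen, had 2.40 and 183 CPM (76.1-fold). Cpxm1, a carboxypeptidase-like secreted protein, had 7.51 and 264 CPM. Matrix proteins were Efemp1 (6.54 and 178 CPM), Mfap5, a microfibril protein (25.9 and 525 CPM), and Abi3bp (6.25 and 107 CPM). Cygb, a globin of fibroblasts, had 27.6 and 440.7 CPM, and Fxyd1, a regulator of the sodium pump, had 14.02 and 242 CPM. C3, Hp and Saa3 are described with the complement and acute-phase genes. All 12 were called higher in bulk CFs, and 9 of 12 in bulk MGT cells. The exceptions in bulk MGT cells were Ndufa4l2 (log2 0.28, edgeR adjusted p = 0.719), Saa3 (log2 -0.31, edgeR adjusted p = 0.262) and Abi3bp (log2 -0.16, edgeR adjusted p = 0.469).

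These neonatal levels differed between fibroblasts without and with a cardiac gene. Of the 590 with one, Mmp3 had a count in 186 cells, Mfap5 in 165, Cygb in 145 and Ccl8 in 17. In the 38 neonatal fibroblasts without a cardiac gene, Mmp3 reached 737 CPM from 12 cells with a count, against 40.4 CPM in the 590 others. There Ccl8 had 190.2 CPM from 7 cells, Mfap5 258 CPM from 16 cells and Cygb 276 CPM from 11 cells, and the median cell of the 38 had 0 CPM of each. The 2467 24-month fibroblasts without a cardiac gene had 3050 CPM of Mmp3, and their median cell had 2354 CPM. The excess of these genes at 24 months was smaller when no cardiac gene was allowed in either library. In that selection 324 genes were higher and 228 lower at 24 months. They included 170 of the 367 higher and 130 of the 241 lower genes of the full selection that were tested there. The part of cardiac RNA and of the low depth of the 38 cells in this was not tested.

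The largest deficits at 24 months, after Xist (185 CPM and 0.0372 CPM), were led by Tnnt2, cardiac troponin T, which the rule used. It had 1773 CPM in neonatal and 32.0 CPM in 24-month fibroblasts, and 637 and 1.94 CPM in the macrophages. Atp1b1, a sodium pump subunit, had 707 CPM (698 to 716) and 18.9 CPM (18.04 to 19.69), a 37.5-fold deficit, and 28.7 CPM in neonatal macrophages. Eln, the elastin precursor, had 337 and 12.5 CPM (26.9-fold). Igfbp2, a binding protein of insulin-like growth factors, had 220.0 and 6.07 CPM. Sprr1a (229 and 9.31 CPM), Ezr, which links membrane and actin (145 and 10.5 CPM), Ptprb, a receptor phosphatase (424 and 34.2 CPM), Rflnb (618 and 55.6 CPM) and Nrep (142 and 13.7 CPM) were also among them. Cck, a peptide hormone, had 115 and 6.12 CPM, with 90.5 CPM in neonatal macrophages. Ccl5, a chemokine, had 159 and 21.3 CPM.

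Apart from Tnnt2, 8 of these 11 were called lower in bulk MGT cells and 9 of the 10 tested in bulk CFs. The MGT call of Igfbp2 was lost without 18-month replicate 1 (log2 -0.32, edgeR adjusted p = 0.1003) or neonatal replicate 2 (log2 -0.40, edgeR adjusted p = 0.0552). Eln had 21.5 and 19.8 CPM in neonatal against 1.95 and 2.25 CPM in 18-month bulk MGT cells (log2 -3.29 ± 0.18 SE, edgeR adjusted p = 1.013e-13). In bulk CFs it had 1501 and 1626 CPM against 57.0 and 59.2 CPM (log2 -4.75, edgeR adjusted p = 1.204e-11). Cck differed in direction, since bulk MGT cells had 8.32 and 7.03 CPM at the neonatal age and 29.2 and 36.8 CPM at 18 months (log2 2.10, edgeR adjusted p = 0.00473). Ccl5 was called higher in 24-month bulk CFs, at under 1 CPM in every library.

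**Figure D2:**
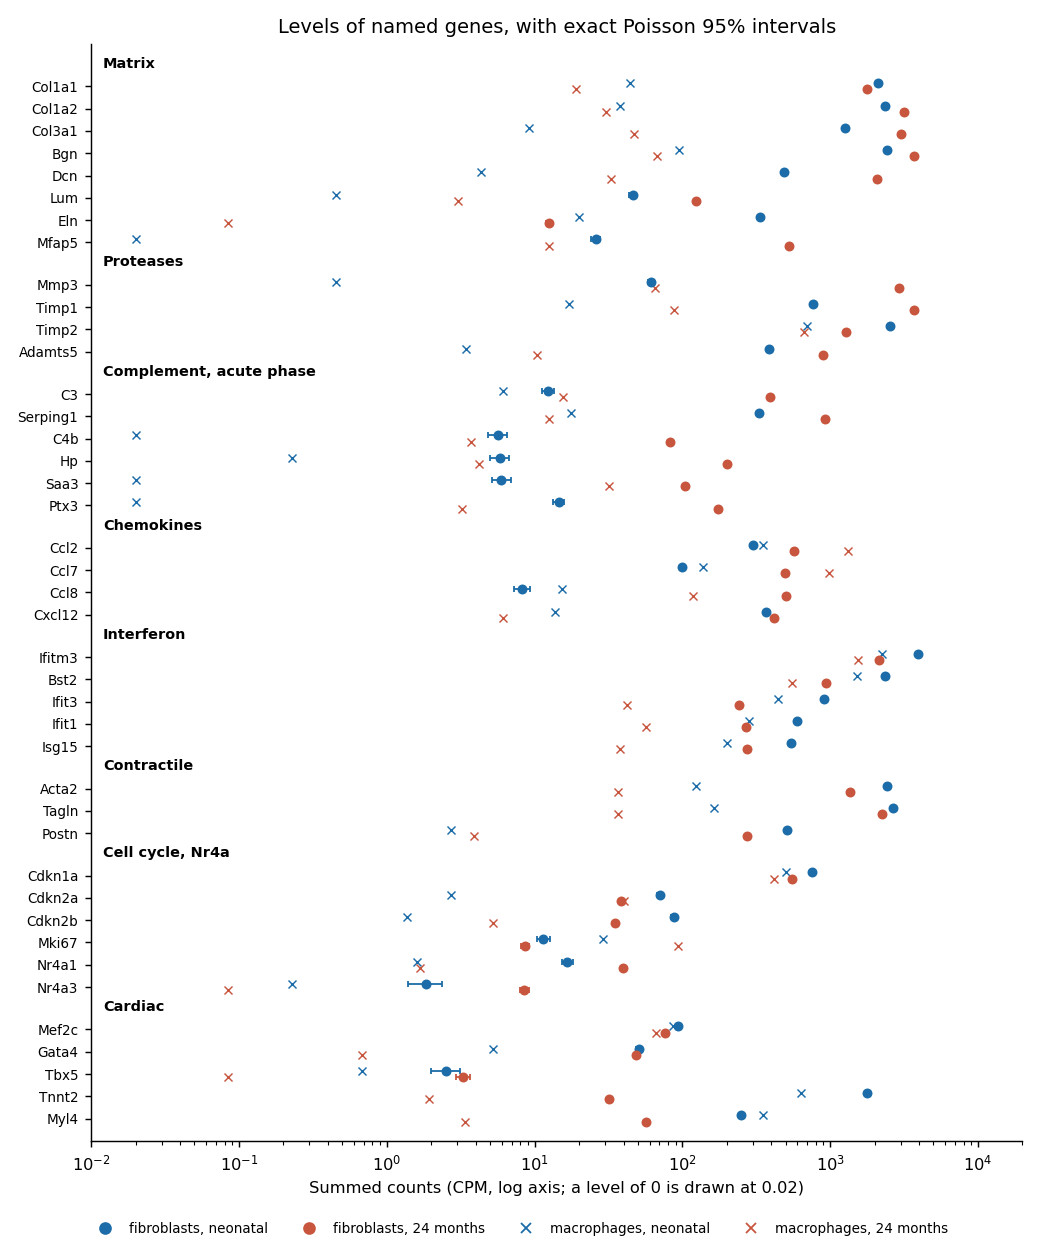
Summed CPM (log x axis) of named genes in neonatal and 24-month fibroblasts (circles, with exact Poisson 95% intervals) and in the macrophages of the same library (crosses), grouped by role. Mmp3, C3 and Dcn lie further right at 24 months, and Bst2, Ifit3 and Eln further right in the neonatal library. The collagens, which the choice of both cell types used, lie far to the right of their crosses.

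Whether fibroblasts of the 2 ages differed in the interferon programme was examined on a list of 34 interferon-stimulated genes. Of 32 tested in single fibroblasts, 0 were higher and 17 lower at 24 months, with a median log2 difference of -1.16, against 3.81% of all genes lower. Their summed level was 12830 CPM in neonatal and 6897 CPM in 24-month fibroblasts. The macrophages of the same libraries moved the same way, with 9147 and 3654 CPM, so the difference was not limited to fibroblasts. Its cause was not tested.

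Bst2 had 2340 CPM (2323 to 2357) in neonatal and 930.2 CPM (924.5 to 936.0) in 24-month fibroblasts, a 2.52-fold deficit, and the median cell had 2290 and 760 CPM. Ifit3 had 905 CPM (895 to 916) and 242 CPM (239 to 245), a 3.74-fold deficit, with 657 and 57.2 CPM in the median cell. Ifit1, which binds foreign RNA, had 597 and 268 CPM, and Isg15, a ubiquitin-like protein, had 546 and 275 CPM, just under a 2-fold difference. Ifitm3, a membrane restriction factor, had 3926 and 2133 CPM. Ifi27l2a went the other way, with 890 CPM in neonatal and 1328 CPM in 24-month fibroblasts.

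The 2 replicated bulk comparisons gave opposite directions. They differed in MGT, in the older age (18 and 24 months) and in the sex-linked counts, and the part of each was not tested. The LacZ cultures, also without MGT, were not compared. In bulk MGT cells 32 of 34 list members were called lower at 18 months (94.1%, median log2 -3.22). In bulk CFs 33 of 34 were called higher at 24 months (97.1%, median log2 2.99). Bst2 had 362 and 309 CPM in neonatal and 31.9 and 34.9 CPM in 18-month bulk MGT cells (log2 -3.33 ± 0.12 SE, edgeR adjusted p = 3.319e-16). In bulk CFs it had 43.4 and 36.6 CPM at the neonatal age and 174 and 182 CPM at 24 months (log2 2.14 ± 0.06 SE, edgeR adjusted p = 1.024e-23). The list was lower at the older age in the single fibroblasts and in bulk MGT cells, and higher in the CFs. The single-cell libraries are labelled MGT. Their Tbx5 level (2.53 and 3.29 CPM) was near that of neonatal CFs without MGT (4.46 and 4.15 CPM) and far below that of neonatal bulk MGT cells (218 and 270.0 CPM). Single-cell and bulk levels come from unlike library types, and whether the single cells carried MGT was not tested.

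Ifit3 followed the same pattern in bulk. Neonatal MGT libraries had 349 and 272 CPM against 10.98 and 11.87 CPM at 18 months (log2 -4.76 ± 0.30 SE, edgeR adjusted p = 1.332e-05). Neonatal CFs had 20.9 and 14.2 CPM against 155 and 149 CPM at 24 months (log2 3.10 ± 0.22 SE, edgeR adjusted p = 0.000264). Isg15 had a log2 difference of -3.67 in bulk MGT cells and 4.36 in bulk CFs. Even Ifi27l2a, higher at 24 months in the single cells, was lower in bulk MGT cells (log2 -4.55) and higher in bulk CFs (log2 4.32). The MGT and CF tables were fitted separately, so the difference between their age effects was not tested here.

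**Figure D3:**
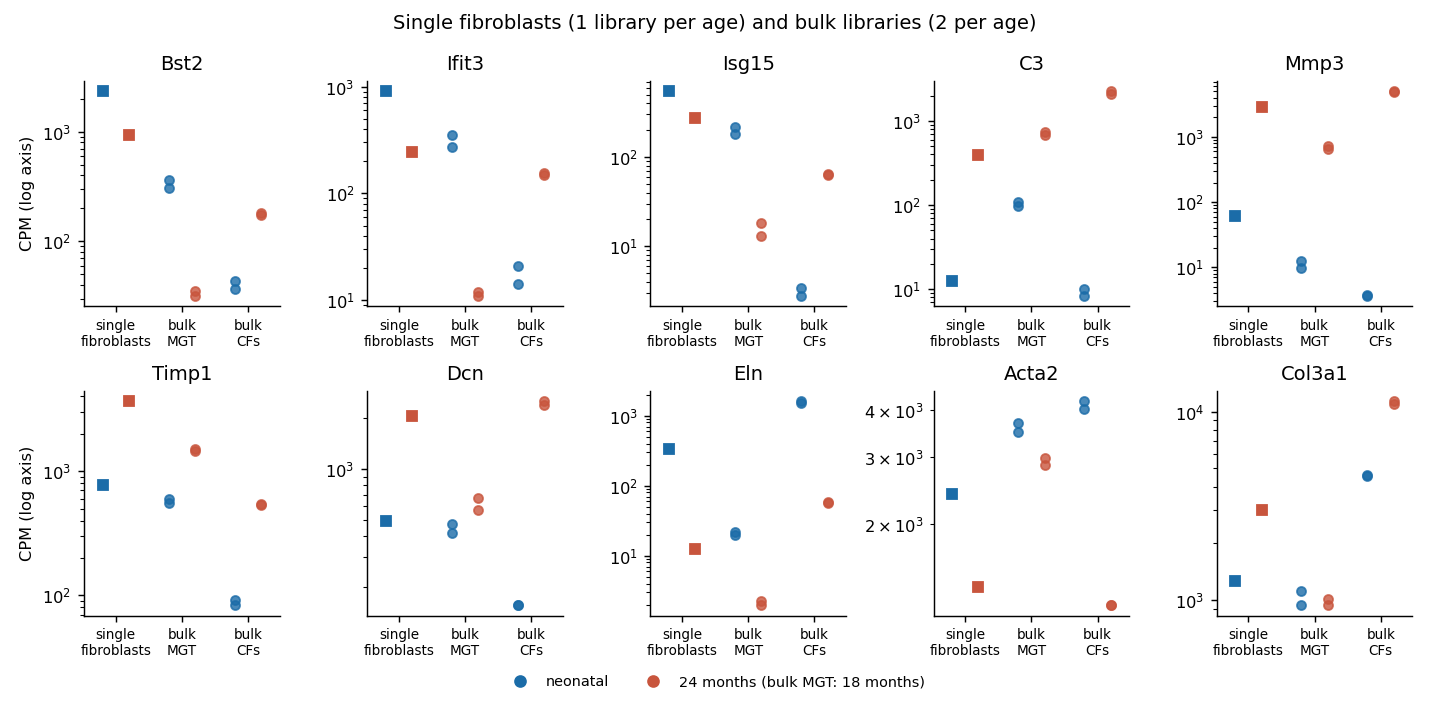
CPM (log y axis) of 10 genes in single fibroblasts (squares, 1 library per age), bulk MGT cells and bulk CFs (circles, n = 2 libraries per group). Bst2, Ifit3 and Isg15 are higher in the neonatal libraries of single and bulk MGT cells and lower in the neonatal CFs, while Mmp3, C3, Timp1 and Dcn are higher in the old libraries throughout and Eln is lower.

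The interferon difference was spread over the cells. With every cell thinned to 7500 counts (566 neonatal and 2481 24-month fibroblasts; 62 and 229 shallower ones left out), at least 3 of the 5 markers Isg15, Ifit1, Ifit3, Rsad2 and Irf7 were detected in 90.1% of neonatal (87.3 to 92.4) and 36.8% of 24-month fibroblasts (34.9 to 38.7). Without thinning the shares were 92.5% and 70.4%. The macrophages gave 68.9% and 5.44% after thinning. The list took a median of 1.20% of the counts of a neonatal cell and 0.587% of a 24-month cell. Among fibroblasts with no Xist count (368 and 2706 cells), 0 of 32 list members were higher and 19 lower, with a median log2 of -1.23. A cell with no Xist count is not thereby shown to be male. When no cardiac gene was allowed, Bst2 had 1965 CPM in the 38 neonatal cells and 926.6 CPM in the 2467 24-month cells, and 0 of 31 list members were higher and 9 lower (median log2 -0.72).

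Antigen presentation genes, which carry peptides to T cells and are themselves raised by interferons, showed a smaller difference. Of 15 tested, 0 were higher and 4 lower at 24 months, with a median log2 of -0.57. B2m, the light chain of class I molecules, had 2965 and 1966 CPM, and Psmb8, an immunoproteasome subunit, had 162 and 56.3 CPM. Psmb9 and the peptide transporter Tap1 were also lower (32.1 and 11.95 CPM, and 54.8 and 24.9 CPM). H2-T22 had 172 and 83.3 CPM, while H2-K1 (928 and 761 CPM), H2-D1 (806 and 629 CPM) and Tapbp (157 and 155 CPM) differed by under 2-fold. In bulk MGT cells 15 of 16 were called lower, with H2-T22 as the exception (log2 0.20, edgeR adjusted p = 0.0967), and in bulk CFs 16 of 16 were called higher. In the cells without a cardiac gene this difference was not seen, with 0 of 14 members lower, 1 higher and a median log2 of -0.02.

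The matrix programme was described by its protein classes. Small leucine-rich proteoglycans, which coat and space collagen fibrils, were higher at 24 months for 5 of 8 tested genes and lower for Fmod alone (29.9 and 12.1 CPM; median log2 1.15), and their summed level was 3341 and 6628 CPM. Dcn, decorin, had 489 CPM (481 to 497) and 2076 CPM (2068 to 2085), with 191 and 1758 CPM in the median cell. Lum, lumican, had 46.2 and 123 CPM, Prelp 209 and 481 CPM, Ogn 88.1 and 187 CPM, and Podn 13.95 and 42.21 CPM. Bgn, biglycan, was abundant in both, at 2438 and 3688 CPM.

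In bulk, Dcn had 470 and 415 CPM in neonatal and 670 and 572 CPM in 18-month MGT cells (log2 0.49 ± 0.09 SE, edgeR adjusted p = 0.000168). Bulk CFs had 155 and 155 CPM against 2421 and 2544 CPM (log2 4.003 ± 0.046 SE, edgeR adjusted p = 6.734e-35). In all, 7 of 9 proteoglycan genes were called higher and 1 lower in bulk CFs. In bulk MGT cells 3 of 9 were called higher and 2 lower, among the lower Podn. The Podn call was lost without 18-month replicate 1 (log2 -0.82) or neonatal replicate 2 (log2 -1.06). Among cells with no cardiac gene, Dcn was 1110 CPM in the 38 neonatal and 2080 CPM in the 24-month cells, Lum was no longer higher (133 CPM in the 38 cells), and 2 of 8 list members were higher.

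Fibrillar and network collagens differed in both directions, with 5 of 16 higher (Col3a1, Col6a1, Col6a2, Col12a1 and Col15a1) and 2 lower (Col6a3 and Col11a1; median log2 0.03) and sums of 10550 and 13000 CPM. The list and its sums include the 3 collagens of the rule. Fn1, fibronectin, had 3338 and 2884 CPM in single fibroblasts. In bulk it was lower in old cells of both tables, at 17530 and 17530 against 5861 and 6389 CPM in MGT cells (log2 -1.52, edgeR adjusted p = 0.00285). Of the elastic fibre and basement matrix genes, 5 of 18 were higher and 2 lower, with Eln and Ltbp1 lower, Fbln1, Efemp1, Mfap2, Mfap4 and Mfap5 higher, and Fbn1, the microfibril scaffold, at 268 and 434 CPM. Col4a1, of basement membranes, had 1677 and 1427 CPM. Lox, which cross-links collagen and elastin, had 807 and 949 CPM, and of the collagen processing genes 2 of 19 were higher (Pcolce2 and Adamts2) and 0 lower. The bulk CFs called Col3a1 higher (log2 1.28) while Col1a1 and Col1a2 were called lower (log2 -1.13 and -0.41), and bulk MGT cells did not call Col3a1 (log2 -0.07, edgeR adjusted p = 0.615). Over the 18 collagens of the list, bulk MGT cells called 2 higher and 9 lower, and bulk CFs 6 higher and 12 lower.

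Matricellular proteins, which signal from the matrix, had 5 of 14 members higher, among them Spp1, osteopontin (57.4 and 304 CPM), and Sparcl1, Tnc, Thbs2 and Ccn3. Lower were Ccn4 (558 and 168 CPM) and Cthrc1 (330.4 and 147 CPM). Sparc was at 7034 and 6883 CPM. Postn, periostin, a marker of activated fibroblasts, had 512 and 274 CPM in single fibroblasts and a far larger deficit in bulk, at 2115 and 2092 against 175 and 167 CPM in MGT cells (log2 -3.62 ± 0.10 SE, edgeR adjusted p = 1.872e-19).

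Metalloproteinases and their inhibitors were 4 of 11 higher (Mmp3, Timp1, Adamts5 and Mmp19) and 0 lower, and their sum was 5493 and 11180 CPM. Timp1, an inhibitor of metalloproteinases, had 769 CPM (760 to 779) and 3676 CPM (3664 to 3687), a 4.78-fold excess. Bulk MGT cells had 593 and 555 against 1466 and 1514 CPM (log2 1.38 ± 0.09 SE, edgeR adjusted p = 3.639e-12) and bulk CFs 92.6 and 83.1 against 537 and 543 CPM (log2 2.62). Adamts5, a proteoglycan-cleaving protease, had 388 and 895 CPM and was called higher in bulk MGT cells (log2 0.84) and bulk CFs (log2 1.82). Timp2 was lower at 24 months, at 2521 and 1286 CPM, just under 2-fold, and was called lower in both bulk tables. Timp3 (1073 and 1684 CPM) was higher in single fibroblasts by 1.57-fold but was called lower in both bulk tables. Mmp2, a gelatinase, had 271 and 225 CPM. Among cells with no cardiac gene 4 of 11 list members were still higher, and Timp1 had 1845 and 3712 CPM.

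Complement genes were nearly all higher at 24 months. Of 8 tested, 7 were higher and 0 lower (median log2 1.79), and the sum was 540 and 2120 CPM, against 91.7 and 80.3 CPM in the macrophages. C3, the central complement component, had 12.3 CPM (11.2 to 13.6) and 390.4 CPM (387 to 394), a 31.6-fold excess. It was detected in 4.42% of neonatal and 81.7% of 24-month cells at 7500 counts, and the median cell had 0 and 332 CPM. The regulator Serping1 (332 and 927 CPM) and the proteases C1s1 (13.6 and 89.99 CPM) and C1ra (25.2 and 58.1 CPM) had smaller differences, and C4b had 5.62 and 82.4 CPM.

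C3 had 109.5 and 97.9 CPM in neonatal and 686 and 741 CPM in 18-month bulk MGT cells (log2 2.78 ± 0.11 SE, edgeR adjusted p = 1.469e-14). In bulk CFs it had 8.35 and 10.2 CPM against 2067 and 2258 CPM (log2 7.88, edgeR adjusted p = 8.371e-14). Over the list, 10 of 13 genes were called higher and 1 lower in bulk CFs. In bulk MGT cells 5 of 12 were called higher and 3 lower, among the lower C1ra, and Serping1 (log2 -0.18) was not called. The C1ra call was lost without 18-month replicate 1 (log2 -0.29) or neonatal replicate 1 (log2 -0.34). In the cells without a cardiac gene C3 had 140.2 CPM, from 9 of the 38 neonatal cells, and 395 CPM at 24 months, and 3 of 8 members were higher.

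Acute-phase and innate genes were 4 of 6 higher and 0 lower (sum 190 and 744 CPM). Hp, the haemoglobin-binding haptoglobin, had 5.84 and 201 CPM, and Saa3, serum amyloid A, had 5.97 and 104 CPM. Ptx3, a soluble pattern receptor, had 14.6 and 175 CPM and Tnfaip6, a hyaluronan-binding protein, had 7.61 and 25.2 CPM. Sod2, a mitochondrial antioxidant enzyme, had 126 and 176 CPM. Ptx3 was called higher in both bulk tables, from 156 and 130 to 1681 and 1430 CPM in MGT cells (log2 3.44, edgeR adjusted p = 2.943e-17). These genes were carried by few cells in the neonatal library, since Hp was detected in 6 and Saa3 in 7 neonatal cells. When no cardiac gene was allowed, both sums rested on 4 and 1 of the 38 neonatal cells, Hp was at 190 CPM and Saa3 at 154 CPM there, and neither was higher at 24 months by a factor of 2.

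The chemokines Ccl2 and Ccl7 were also more abundant at 24 months, with a high macrophage background. Ccl2, a monocyte chemoattractant, had 299 and 568 CPM in fibroblasts and 354 and 1320 CPM in macrophages. Ccl7 had 100 and 492 CPM in fibroblasts and 139 and 988 CPM in macrophages. Since macrophages of the same library had higher levels of both, the part of free RNA in them was not tested. Csf1, the macrophage growth factor, was clear of that background, with 481 and 822 CPM against 11.4 and 16.0 CPM, and was called higher in both bulk tables (log2 0.65 and 1.72). Cxcl12 had 370 and 414 CPM. Of the NF-kappaB targets, 2 of 10 were higher (Icam1 and Tnfaip2) and 0 lower.

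**Figure D4:**
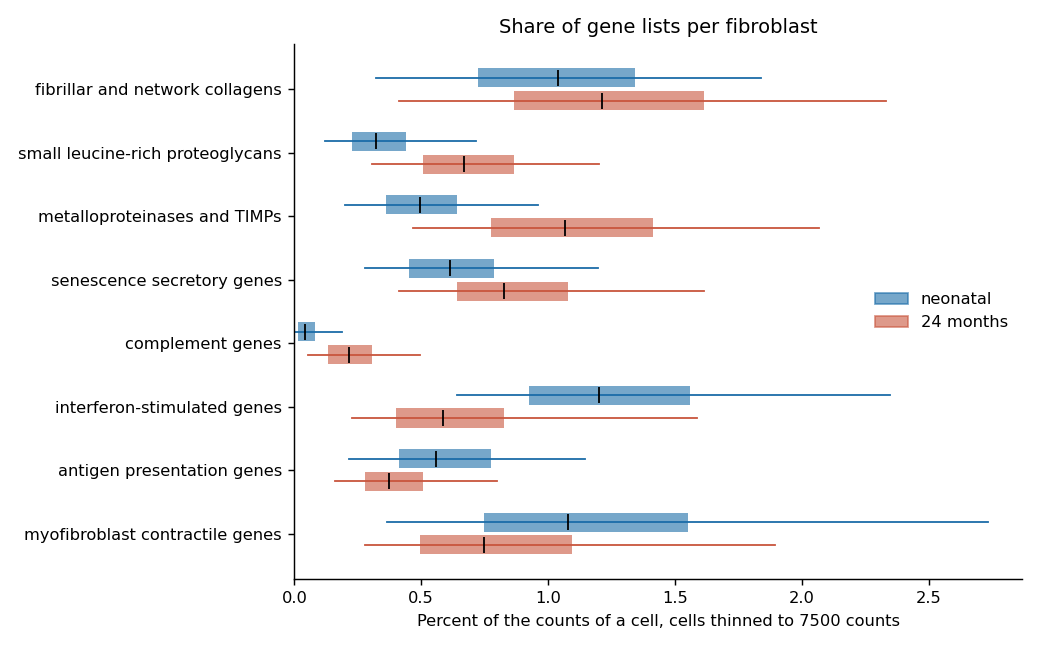
Percent of the counts of a cell taken by 8 gene lists (x axis) in neonatal and 24-month fibroblasts thinned to 7500 counts, with the median (black tick), quartiles (box) and 5th to 95th percentile (line). Metalloproteinases, proteoglycans and complement genes take a larger share of the median cell at 24 months (for complement 0.0400% and 0.213%), interferon-stimulated and myofibroblast genes a smaller one.

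Genes of the senescent secretory programme were 9 of 22 higher and 2 lower at 24 months (median log2 0.80), with sums of 6598 and 8879 CPM. In bulk, 18 of 34 were called higher and 6 lower in MGT cells, and 23 of 31 higher and 4 lower in CFs. The higher members were the chemokines Ccl7, Ccl8, Cxcl1, Cxcl5 and Cxcl14 and the binding proteins Igfbp3, Igfbp4, Igfbp5 and Igfbp6, and the lower ones were Ccl5 and Gdf15 (102 and 40.2 CPM). Igfbp7 had 3631 and 3255 CPM, under 2-fold apart, and was called lower in both bulk tables (log2 -0.73 and -0.33).

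Cdkn1a, Cdkn2a and Cdkn2b, cell cycle inhibitors that mark senescence, were not higher at 24 months in the full selection, while Cdkn2c was (11.5 and 23.5 CPM). Cdkn1a (p21) had 748 and 556 CPM. Cdkn2a, the locus of p16 and p19, had 70.6 CPM (67.7 to 73.6) and 38.5 CPM (37.3 to 39.6), 1.84-fold lower at 24 months, with 2.74 and 40.4 CPM in the macrophages. In bulk, Cdkn2a was called higher in old cells, at 10.5 and 6.66 against 14.9 and 15.8 CPM in MGT cells (log2 0.84 ± 0.17 SE, edgeR adjusted p = 0.000466) and 0.797 and 0.910 against 2.63 and 3.18 CPM in CFs (log2 1.77 ± 0.32 SE, edgeR adjusted p = 2.102e-05). In the fibroblasts without a cardiac gene, the 38 neonatal cells had 34.0 CPM of Cdkn2a, from 10 cells, and the 2467 24-month cells 38.9 CPM, so the deficit was not present there and the order was turned. Cdkn2b (p15) had 87.4 and 34.9 CPM, a 2.51-fold deficit, and bulk CFs called it higher (log2 0.65).

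Targets of p53 were 0 of 16 higher and 2 lower (Gadd45b and Bbc3), with Bax at 546 and 384 CPM, Phlda3 at 308 and 226 CPM and Mdm2 at 139 and 114 CPM. Proliferation genes were 0 of 17 higher and 2 lower (Ube2c and Mcm6). Without a cardiac gene 3 of 14 were higher and 0 lower (median log2 -0.01). Of 31 tested in bulk, 5 were called higher and 3 lower in MGT cells, and 1 higher and 23 lower in CFs. Mki67, a marker of cycling cells, had 11.5 and 8.66 CPM, and at least 3 of 5 cycling markers were detected in 4.24% (2.74 to 6.24) and 2.94% (2.31 to 3.69) of thinned cells, against 9.24% and 14.95% of macrophages. These levels were low in the fibroblasts of both ages. Without a cardiac gene the order of Mki67 was turned, at 3.19 CPM in the 38 neonatal cells, from 3 counts, and 9.18 CPM in the 2467 24-month cells.

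The Nr4a nuclear receptors, early response genes and the subject of the study, were rare in single fibroblasts. Nr4a3 had 1.83 CPM (1.39 to 2.37) and 8.54 CPM (7.998 to 9.112), 4.67-fold more at 24 months, below the 10 CPM minimum. Nr4a1 had 16.6 and 39.5 CPM (2.37-fold) and Nr4a2 4.33 and 7.37 CPM. Bulk MGT cells had 10.1 and 8.18 CPM of Nr4a3 in neonatal against 22.6 and 32.1 CPM in 18-month libraries (log2 1.58 ± 0.18 SE, edgeR adjusted p = 4.903e-07). Bulk CFs had 0.797 and 1.59 against 3.52 and 3.33 CPM (log2 1.55 ± 0.28 SE, edgeR adjusted p = 1.898e-05). Nr4a3 was thus higher in old cells in all 3 data sets. Nr4a1 was called higher in bulk MGT cells (log2 0.58, edgeR adjusted p = 0.018), a call lost without 18-month replicate 2 (edgeR adjusted p = 0.151) or neonatal replicate 2 (edgeR adjusted p = 0.0728), and was not called in bulk CFs. Nr4a2 was called higher in bulk MGT cells (log2 1.21, edgeR adjusted p = 0.0129), a call lost without 18-month replicate 2 (edgeR adjusted p = 0.0896), and lower in bulk CFs (log2 -0.92, edgeR adjusted p = 0.000304). Without a cardiac gene, Nr4a3 in the neonatal cells rested on 4 counts in 38 cells.

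Contractile genes of myofibroblasts were lower at 24 months for 3 of 12 tested genes (Des, Mylk and Lmod1) and higher for 0 (median log2 -0.72), with sums of 12860 and 9290 CPM. Acta2, smooth muscle actin, had 2408 CPM (2391 to 2425) and 1364 CPM (1357 to 1371), and 1209 and 563 CPM in the median cell. It had 5424 CPM in neonatal sub-cluster 3, described with the clusters, and 1850 CPM in the other neonatal fibroblasts. There the list summed to 18600 and 11800 CPM. Tagln (2654 and 2258 CPM), Tpm1 (1318 and 806 CPM) and Vim, vimentin (3802 and 2305 CPM), differed by under 2-fold. In bulk CFs all 15 members were called lower at 24 months, with Acta2 at 4224 and 4027 against 1227 and 1221 CPM (log2 -1.75 ± 0.04 SE, edgeR adjusted p = 9.539e-27). In bulk MGT cells 6 of 15 were lower and 2 higher. At least 4 of the 5 myofibroblast markers were detected in 38.3% (34.3 to 42.5) of neonatal and 18.1% (16.6 to 19.7) of 24-month thinned fibroblasts, and in 0 of 119 and 0 of 368 macrophages. Without a cardiac gene 7 of 13 members were lower and the median log2 was -1.02.

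Genes of resident fibroblasts had 5 of 16 members higher (Pdgfra, Ly6a, Cygb, Dpep1 and Medag) and 2 lower, Thy1 (66.3 and 20.9 CPM) and Cd34 (31.6 and 1.37 CPM). Ly6a (Sca-1) had 133 and 687 CPM in fibroblasts, with 141 CPM in neonatal macrophages, and was called higher in both bulk tables (log2 1.22 and 7.20). Tcf21, a transcription factor of cardiac fibroblasts, had 199 and 158 CPM, Pdgfrb 148 and 202 CPM and S100a4 1829 and 2842 CPM. Fetal growth and imprinted genes were 1 of 13 higher (Peg10) and 7 lower (median log2 -1.67), among them Hmga2 (48.4 and 4.35 CPM), Igf2bp3 (29.1 and 6.18 CPM) and Grb10 (80.97 and 25.4 CPM). Meg3, an imprinted long RNA, had 319 and 80.6 CPM, and was lower in bulk MGT cells (log2 -1.59) and bulk CFs (log2 -3.90). There 18 and 19 of 23 members of the list were called lower, and 3 higher in each. Gnas had 1172 and 1074 CPM.

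Binding proteins of insulin-like growth factors split by member, in a list with 5 of 9 higher and 2 lower (median log2 1.41). Igfbp3 had 38.2 and 414 CPM (10.8-fold) and Igfbp4 58.5 and 343 CPM (5.87-fold), while Igfbp2 was lower at 24 months, as given above. Igf1 itself had 76.4 and 203 CPM in fibroblasts but 926 and 761 CPM in macrophages, and its receptor Igf1r had 204 and 151 CPM. Igfbp4 was called higher in both bulk tables (log2 1.27 and 2.88). Igfbp3 was called higher in bulk CFs (log2 2.87), and lower in bulk MGT cells (log2 -0.64, edgeR adjusted p = 0.00354). That MGT call was lost without 18-month replicate 2 (edgeR adjusted p = 0.0889) or neonatal replicate 1 (edgeR adjusted p = 0.109). Igf1 was called lower in both bulk tables (log2 -0.96 and -0.62), against the direction in single fibroblasts.

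Of 6 Wnt pathway genes tested, 3 were higher and 1 lower at 24 months, and secreted Wnt antagonists went both ways. Sfrp1 had 86.2 and 481 CPM and Frzb 48.7 and 213 CPM, while Sfrp2 had 15.9 and 4.49 CPM. Frzb was called higher in both bulk tables (log2 1.62 and 3.55). Sfrp1 was called higher in bulk CFs (log2 1.86) but lower in bulk MGT cells (log2 -1.17, edgeR adjusted p = 0.0009). TGF-beta and BMP genes were 5 of 19 higher, among them the receptors Tgfbr1, Tgfbr2 and Tgfbr3, and 2 lower (Tgfb3 and Bambi).

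In single fibroblasts the 3 factors differed by under 2-fold between the ages. Mef2c had 93.2 CPM (89.9 to 96.6) and 76.6 CPM (74.97 to 78.29) in fibroblasts and 86.2 and 66.4 CPM in macrophages. Gata4 had 51.0 and 48.3 CPM against 5.25 and 0.675 CPM in macrophages. Tbx5 had 2.53 CPM (2.00 to 3.14) and 3.29 CPM (2.96 to 3.65), near the 4.46 and 4.15 CPM of neonatal bulk CFs without MGT and far below the 218 and 270.0 CPM of neonatal bulk MGT cells. All 3 factors were detected in 5.41% of neonatal and 6.38% of 24-month fibroblasts, and in 0.177% and 0.685% after thinning. In bulk CFs 3 of 3 factors were called lower at 24 months (median log2 -0.99). In bulk MGT cells 1 of 3 was called lower at 18 months (median log2 -0.27). That call, of Gata4, was lost without 18-month replicate 1 (log2 -0.18) or neonatal replicate 2 (log2 -0.21). Transcripts of the introduced and the endogenous genes cannot be told apart in these counts, and the single-cell and bulk libraries were of unlike types.

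Of 22 cardiac contractile genes, only Tnnt2, Myl4 and Ldb3 reached the 10 CPM minimum, and all 3 were lower at 24 months. The sum over the list was 2106 and 97.6 CPM in fibroblasts and 1867 and 12.6 CPM in macrophages of the same libraries. Tnnt2, a gene of the rule, made up most of the neonatal fibroblast sum. Of the collagen-positive barcodes, 824 of 1472 neonatal and 67 of 3145 24-month ones held 2 or more cardiac genes of the rule and were left out. The fibroblast levels of this list thus describe the selection in part. Myl4, an atrial myosin light chain, had 251 and 56.5 CPM in fibroblasts and 353 and 3.38 CPM in macrophages, and Ldb3, of the Z-disc, had 20.4 and 2.27 CPM against 14.1 and 0.0844 CPM. Neonatal macrophages thus carried Myl4 above the fibroblast level, though only the fibroblasts were chosen with a limit on cardiac genes. The part of free RNA in the cardiac counts of neonatal fibroblasts was not tested. Other cardiac transcription factors were 0 of 7 higher and 1 lower (Gata6, 101 and 46.8 CPM), with Tbx20 at 419 and 418 CPM.

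Markers of other cell types were examined for admixture. Of 18 macrophage markers, 2 reached 10 CPM, and the sum was 62.2 and 143 CPM in fibroblasts against 33350 and 42400 CPM in macrophages. The most abundant, Lyz2, had 36.6 and 83.8 CPM. Of 15 endothelial markers 3 were tested, with Flt1, a VEGF receptor, at 54.8 and 3.64 CPM and Fabp4 at 6.69 and 84.2 CPM, and sums of 254 and 313 CPM. Of 13 epicardial and mesothelial markers 4 were tested, 3 lower (Upk1b, Upk3b and Lrrn4) and 1 higher (median log2 -4.39). Upk1b had 51.0 and 0.353 CPM, and the higher one, Aldh1a2, a retinoic acid enzyme, had 10.2 and 133 CPM. The markers summed to 857 CPM in neonatal sub-cluster 5, described with the clusters, and to 66.7 CPM in the other neonatal fibroblasts. Of 10 pericyte and smooth muscle markers, 4 were tested, with Ndufa4l2 and Notch3 higher and Mcam (20.2 and 0.335 CPM) and Cspg4 (40.03 and 4.53 CPM) lower. Schwann, lymphoid and red cell markers summed to 6.98 and 1.82 CPM, and 7 of 12 were at 0 in both libraries.

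Glycolysis genes were 2 of 16 higher (Pfkl and Slc16a3) and 0 lower (median log2 0.57), with Pkm at 460.1 and 916 CPM, Ldha at 451 and 793 CPM and Gapdh at 1484 and 1834 CPM, and macrophages shifted likewise (sums of 5263 and 7903 CPM). Pkm was called higher in bulk MGT cells (log2 0.66) and bulk CFs (log2 1.31). Cytosolic ribosomal protein genes gave 0 of 77 higher or lower, at sums of 203100 and 202100 CPM. Mitochondrially encoded genes were 0 of 11 higher and 4 lower, with mt-Co1, a subunit of cytochrome oxidase, at 2121 and 977 CPM. The order was not that of the bulk libraries, where 0 of 13 members (MGT) and 0 of 12 (CFs) were called lower.

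Stress genes were 4 of 17 higher (Mt1, Mt2, Hmox1 and Hspa1b) and 2 lower (Hspb1 and Ddit3), and immediate early genes 4 of 20 higher (Fos, Fosb, Egr2 and Egr3) and 2 lower (Klf2 and Atf3). Mt1, a metal-binding metallothionein, had 909.9 and 4008 CPM, with 480.1 and 908 CPM in macrophages. Hspb1, a small heat shock protein, went the other way, at 933 and 465 CPM.

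Each library was also clustered alone, which gave 7 neonatal and 9 24-month sub-clusters. Clusters were defined by these genes, so what follows is description without a test. The clearest pair was the cycling-like cells, neonatal sub-cluster 7 (42 cells) and 24-month sub-cluster 6 (122 cells), which shared 40 of their 50 leading genes (80.0% of each list), with Mki67 at 125 and 150.1 CPM and Pclaf at 369 and 375 CPM. Neonatal sub-cluster 3 (113 cells) and 24-month sub-cluster 3 (368 cells) shared 20 leading genes. Ppp1r14c, a phosphatase inhibitor (472 and 72.5 CPM), led both, and Sphkap (21.8 and 24.0 CPM) was among the 10 leading genes of each. They held the most Mef2c (251 and 332 CPM) and Tnnt2 (4472 and 190.3 CPM) of their library. The 10 leading genes of the neonatal one also held the cardiac genes Ryr2 (34.1 CPM) and Myl4 (1116 CPM). Cardiac contractile genes, Tnnt2 included, summed to 5831 CPM there and to 1416 CPM in the other neonatal fibroblasts. At 24 months these sums were 389 and 55.6 CPM.

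The interferon programme had its own sub-cluster at 24 months. Sub-cluster 5 (133 cells) was interferon-responding-like, with Cxcl10 at 2035 CPM against 10.2 CPM in the other 24-month fibroblasts, Rsad2 at 1192 CPM, Isg15 at 1799 CPM and Ifit3 at 1930 CPM. Its interferon-stimulated genes summed to 20870 CPM. The other 24-month sub-clusters had between 2737 and 7602 CPM, while every neonatal sub-cluster had between 10630 and 16100 CPM. Neonatal sub-cluster 1 (139 cells), also led by Cxcl10 (1017 CPM against 127 CPM), shared 15 leading genes with it. In the neonatal library the programme was thus present in all sub-clusters, and at 24 months a small set of cells exceeded the neonatal level.

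Neonatal sub-cluster 2 (117 cells) and 24-month sub-cluster 7 (119 cells) shared 10 leading genes, among them Crct1 (701 and 730.3 CPM), and had the lowest mitochondrial share of their library (0.208% and 0.0763%). Sub-cluster 7 had the most Cdkn2a of the 24-month library, 168 CPM, and also Ccnd1, a cyclin, at 445 CPM. Neonatal sub-cluster 5 (85 cells, 13.5% of the neonatal fibroblasts) was led by Upk1b (282 CPM) and Lrrn4 (280 CPM). Its 10 leading genes also held the epicardial and mesothelial markers Upk3b (166 CPM) and Bnc1 (25.8 CPM), it had the most Xist (425 CPM), and it was not named. Neonatal sub-cluster 6 (45 cells) had Igfbp2 at 1335 CPM, against 121 CPM in the other neonatal fibroblasts, and Scx, a tendon factor, at 163 CPM. At 24 months, sub-cluster 1 (1012 cells) was led by Col15a1 (150 CPM) and sub-cluster 2 (690 cells) had Igfbp4 at 726 CPM and Mmp3 at 4790 CPM. Neonatal sub-cluster 4 and 24-month sub-clusters 4, 8 and 9 had median counts of 4641 to 7540 per cell, were led by Gm42418, AY036118, Malat1 or mt-Nd6, and were left unnamed.

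**Figure D5:**
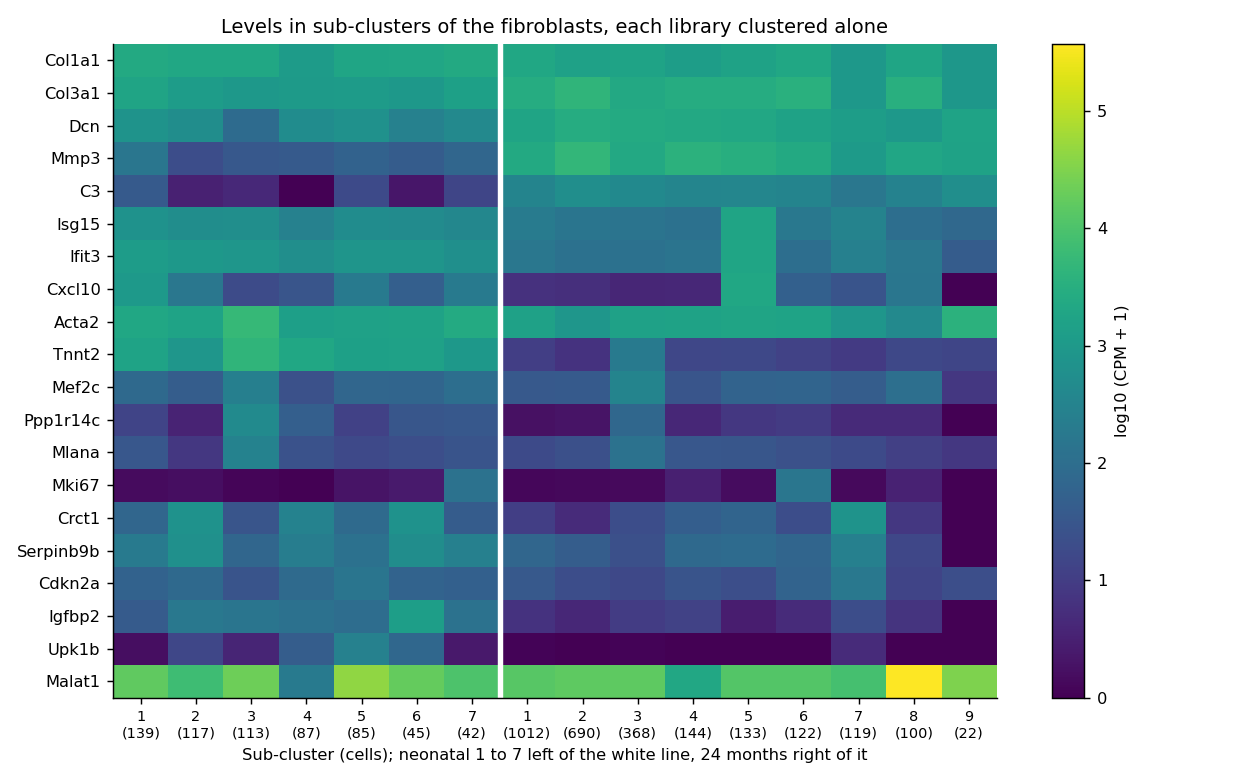
Heat map of log10(CPM + 1) for 20 genes (rows) in the sub-clusters of the fibroblasts (columns, with cell numbers), neonatal left of the white line and 24 months right of it. Mki67 marks neonatal 7 and 24-month 6, Ifit3 is high in all neonatal columns and in 24-month 5, and Mmp3 and C3 are higher in the 24-month columns.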

How the data were processed

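The deposited files used here hold whole-number counts. Bulk files give raw read counts per gene, made with Trimmomatic 0.36, featureCounts of Subread 1.5.1, SAMtools and build mm10 per the submitters' processing notes. The aligner is not given in the sources used here. The single-cell files, which the labels describe as 10x Genomics libraries, give counts per gene and barcode, and no barcode had under 500 counts. The labels' extraction protocol, with TRIzol RNA and rRNA depletion, describes bulk libraries. Bulk columns named 13m and 15m were taken as the 12-month and 18-month samples and D3 as MGT, following the labels. Bulk depth was 14.5 to 18.8 M (1e6) counts in the MGT table and 17.3 to 22.3 M in the CF table. The single-cell libraries held 124 M and 153 M counts.

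Fibroblasts were selected on the collagen rule with Python 3.11.15, numpy 2.4.6, pandas 2.3.3 and scipy 1.17.1. Counts were summed over the cells of a library, with exact Poisson intervals for levels and exact conditional binomial intervals for ratios. Doublets were not called. Sub-clusters came from scanpy 1.11.5 and igraph 0.11.9 (2000 variable genes, 30 components, 15 neighbours, Leiden resolution 0.5, cells scaled to 10000 counts). Each bulk table was fitted whole with edgeR 4.0.16 in R 4.3.3 (filterByExpr, TMM, robust quasi-likelihood test, Benjamini-Hochberg adjustment over all genes, threshold 0.05). DESeq2 1.42.0 was an alternative. The procedures were tested on simulated data.

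The members, the 37 gene lists, the markers and the tests were chosen with earlier results of these data known. Named genes were those of the rule, the factors, the Nr4a genes, Cdkn1a, Cdkn2a, Cdkn2b and Mki67, up to 6 members of each list by mean CPM, the 12 largest excesses and deficits (at least 100 CPM and 4-fold) and the 5 leading genes of each sub-cluster. Other members, named behind counts of a few genes, were chosen after their values were seen. Same-numbered replicates of the groups compared did not deviate together (correlations of 0.04 and -0.03), so no block was used. Coordinates are GRCm38 (GENCODE M21), and promoters were matched by symbol. The knockdown and overexpression tables were not used here.

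Some genes of these lists are not reported here by name, but remain in the counts and sums.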

Additional observations from a re-analysis of the deposited data

How the results depend on the processing

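The counts of genes at least 2-fold apart depended on the minimum level, with 836 higher and 706 lower at a mean of 1 CPM and 154 and 115 at 50 CPM, in place of 370 and 298. Under the 13 other settings tried for the single cells, 3 of them added after the data were seen (cells with at least 0.5% mitochondrial counts, with no Xist count, or with no cardiac gene), they stayed within 1.5 times. At 50 CPM the list medians of fetal (log2 0.0162) and IGF genes (log2 -0.16) changed sign. With no marker of another cell type allowed, 31 neonatal and 1428 24-month cells were left. The genes then 2-fold apart included 169 of the 365 higher and 130 of the 242 lower genes of the full selection tested there, so a like count does not mean the same genes. The signs of Hp (log2 -0.10), Saa3 (-0.69), H2-T22 (0.33) and the pericyte list (0.0158) changed. With no cardiac gene allowed those of Saa3 (-0.57), Ccl5 (0.30), Lum (-0.0726), H2-T22 (0.0131), Igf1 (-0.0218), the IGF list (-0.0218) and the pericyte list (0.11) changed, as did the pericyte list without Xist-positive cells (1.01). These selections hold fewer cells, and the causes of the changes were not tested. Of 485 list medians under other settings 448 stayed within 0.5 log2 units. Ratios of single genes were less stable, with 1057 of 1724 kept alike, 659 moved and 8 counted as changed in sign. That count leaves out Cdkn2a and Mki67, under 2-fold apart in the full selection. Their order also turned with no cardiac gene allowed. The bulk counts of called genes stayed within 1.5 times under DESeq2, without the count filter and with only the 4 libraries compared. With a replicate block they were 2348 higher and 2636 lower in MGT cells and 4527 and 4291 in CFs. Leaving out 1 library gave 1577 to 2031 higher and 1955 to 2095 lower in MGT cells, and 3909 to 4194 and 3861 to 4114 in CFs. In single cells 1 library per age limits every comparison.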
